A study of Mus musculus with 9 samples.

Results

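Class 3 semaphorins are secreted guidance proteins, and the genes described here are Sema3a to Sema3f with the receptor genes Nrp1, Nrp2, Plxnd1 and Plxna1. These 10 genes were taken by name, from 18193 genes that the array annotation represents, and all 10 were measured, by 28 probe sets. Each gene is represented by the brightest of its own probe sets, judged by the average over all 9 arrays, and that average was the measured value that chose it. The genes were picked with earlier results of these data known, which had already singled out Sema3e for its size in 66cl4 tumours. Levels of Sema3e are therefore described without a test. Its calls enter only the counts of how the results depend on the processing, where this is said.

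Neuropilins hold most class 3 semaphorins at the cell surface, and plexins carry the signal into the cell, where it loosens integrin adhesion and collapses the actin skeleton. Sema3a signals through neuropilin-1 and Sema3f through neuropilin-2, each with class A plexins, while Sema3e binds plexin-D1 directly, without a neuropilin. Neuropilins are also receptors for vascular endothelial growth factors, and the family is known in tumours for its effects on vessels, invasion and immune cells.

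The tumours grew from the mouse mammary carcinoma lines named 67NR, 66cl4 and 4T1 (3 lines), each carrying a luciferase construct (CMVLUC), and 1000000 viable cells were injected into a mammary gland of female BALB/c mice aged 7 to 9 weeks. There were 3 mice per line, and each gave 1 array of RNA from tumour areas captured by laser on day 15. The lines descend from 1 BALB/c mammary tumour, 67NR being non-metastatic and 66cl4 and 4T1 metastatic, so each group stands for 1 line in an immunocompetent host of its own strain. No group was left untreated or without tumour.

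Signals are log2 values as deposited, and values of different probe sets are not compared with each other. A probe set at or below the highest of 27 bacterial control probe sets, 4.83 to 5.08 per array, on all 3 arrays of a line is called not above background there. Array medians were 5.51 to 5.58. Of 8 epithelial markers, Cdh1, Krt7, Esrp1 and Cldn7 stayed at background in both 67NR and 66cl4, while all 8 exceeded it in 4T1. All 67NR arrays carried higher file numbers in their labels than any array of the other lines. Spiked hybridization controls averaged a log2 signal of 11.16 ± 0.30 on 67NR arrays, falling to 10.86 ± 0.23 for 66cl4 and 10.46 ± 0.22 for 4T1 (SD, n = 3). For the 9 of the 10 genes that passed the filter on low values, each comparison was refitted with either measure as a covariate, and a call that ended is given beside its gene. Other genes named below were not refitted in this way.

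Sema3e, which encodes the plexin-D1 ligand first cloned from metastatic mouse mammary tumour cells, was well above background in both metastatic tumours and not above it in 67NR. Its log2 signal was 9.57, 9.51 and 9.63 in the 66cl4 mice, 7.87, 7.80 and 7.10 in the 4T1 mice, and 3.96, 3.97 and 3.70 in the 67NR mice. The 3 lines did not overlap, and the 67NR arrays were not above background. The level in 66cl4 was at least 24.8-fold and that in 4T1 at least 6.27-fold that of 67NR, each against the background of the 67NR arrays. Between the metastatic tumours the means of 9.57 ± 0.06 and 7.59 ± 0.42 (SD, n = 3) lay 1.98 apart on the log2 scale, with 66cl4 higher. The other 3 probe sets of Sema3e gave the same order of lines, with means of 7.95 to 8.95 in 66cl4, 5.42 to 7.04 in 4T1 and 3.39 to 4.73 in 67NR.

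Sema3a, encoding the neuropilin-1 ligand that repels axons, was also highest in 66cl4 tumours, and lowest in 4T1. Its log2 signal was 9.14, 9.14 and 9.87 in 66cl4, 6.32, 6.61 and 6.88 in 67NR, and 5.56, 5.77 and 6.13 in 4T1 mice. No 2 lines overlapped. Sema3a was higher in 66cl4 than in 67NR by 2.78 ± 0.23 on the log2 scale (SE of the fit, n = 3 per line, limma adjusted p = 2.23e-05), a 6.86-fold difference. It was lower in 4T1 than in 66cl4 by -3.56 ± 0.23 (limma adjusted p = 2.72e-06). The step from 67NR to 4T1, -0.78 ± 0.23, passed the test (limma adjusted p = 0.0225), but ended with the file number (adjusted p = 0.321) or the hybridization controls (adjusted p = 0.787) as covariate. It also ended without 67NR replicate 2 or 3 or 4T1 replicate 1 or 2 (adjusted p = 0.0594 to 0.086). A dimmer Sema3a probe set, not above background in 4T1, had 66cl4 higher than 67NR by 2.90 (limma adjusted p = 1.73e-05), and the dimmest was not tested.

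Sema3c, whose protein binds both neuropilins and plexin-D1 and is known for its part in heart outflow development, went the opposite way and was highest in 67NR tumours. Its log2 signal was 8.53, 8.48 and 8.12 in 67NR, 5.97, 5.17 and 6.74 in 66cl4, and 4.13, 4.91 and 4.78 in 4T1 mice. The lines did not overlap, and the 4T1 arrays were not above background. Sema3c was lower in 66cl4 than in 67NR by -2.42 ± 0.35 (SE, n = 3 in each line, limma adjusted p = 0.000594). In 4T1 it was at least 10.6-fold lower than in 67NR (limma adjusted p = 2.96e-05). It was at least 1.98-fold lower in 4T1 than in 66cl4 (limma adjusted p = 0.0121, and 0.0986 with the hybridization controls as covariate). This bound was 1.51 to 2.61 when 1 array was left out. The 66cl4 mice spread widely for this gene (SD 0.79). The other Sema3c probe set, above background on 2 of 3 67NR arrays and on none of the others, was not tested.

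**Figure D1:**
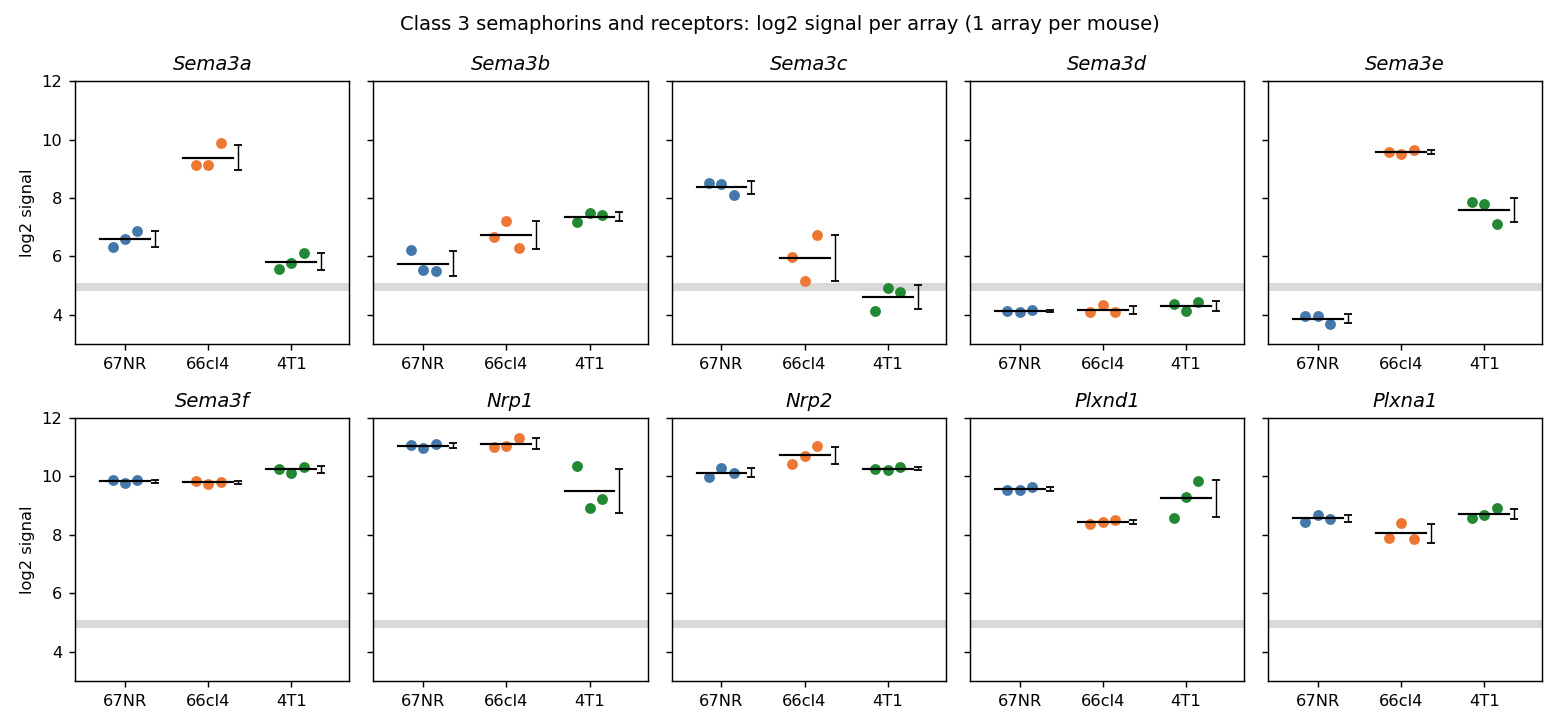
Log2 signal of each of the 10 genes on every array, by tumour line. Points are arrays (1 per mouse), horizontal lines are means, bars beside them are SD (n = 3), and the grey band is the range over arrays of the highest bacterial control (4.83 to 5.08). Sema3e lies below the band in 67NR and above it in 66cl4 and 4T1, Sema3c falls into or below it in 4T1, and Sema3d lies below it throughout.

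Sema3d, Sema3a, Sema3e and Sema3c follow each other in that order on mouse chromosome 5, with other genes between them. The stretch from Sema3d to Sema3c holds 22 protein-coding genes in the RefSeq table, these 4 included, and 9 of them were measured by a probe set of their own. Sema3d, whose protein guides cardiovascular and neural development, was not above background in any line, with means of 4.14 ± 0.04 in 67NR, 4.18 ± 0.14 in 66cl4 and 4.31 ± 0.16 in 4T1 (SD, n = 3), and was not tested. Pclo, a gene of the presynaptic active zone next to Sema3e, was not above background in any line either. Hgf, encoding the ligand of the receptor Met, had means of 5.14 to 5.46. Cacna2d1, a calcium channel subunit gene, had a mean of 6.08 ± 0.10 in 67NR and was above background on 0 of 3 66cl4 and 1 of 3 4T1 arrays. Hgf, tested in the list of neuropilin partners, passed in no comparison (limma adjusted p = 0.0798 to 0.82), and Pclo and Cacna2d1 are given as a description.

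**Figure D2:**
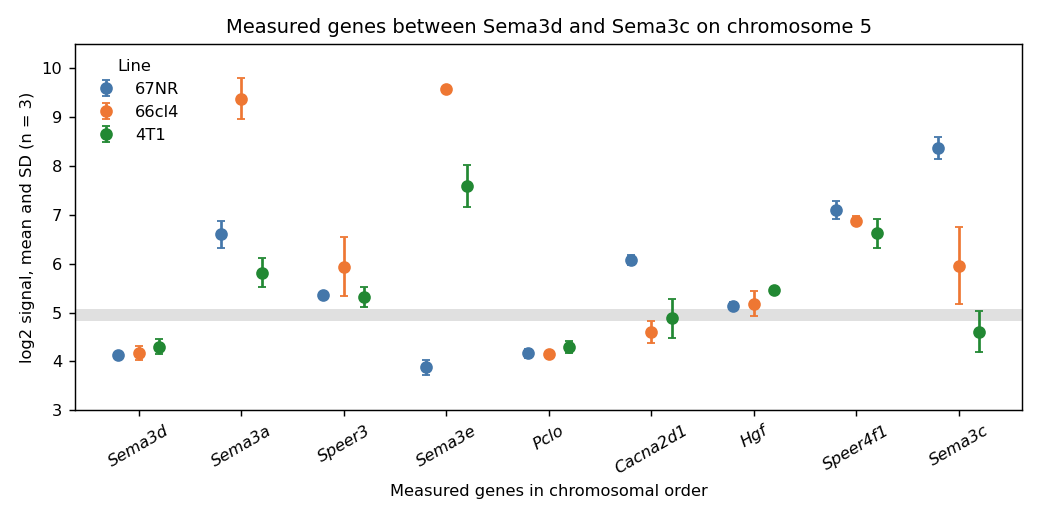
Mean log2 signal with SD (n = 3) of the 9 measured genes from Sema3d to Sema3c, in their order along the chromosome and by line, with the grey band of the bacterial controls. The line order differs from gene to gene: 66cl4 has the highest mean for Sema3a, Sema3e and Speer3, and 67NR for Sema3c, Cacna2d1 and Speer4f1. All lines lie below the band for Sema3d and Pclo.

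The promoters of these 4 semaphorin genes are shown because the genes lie in 1 stretch and yet differ in their order of lines. Sequences are from RefSeq on build GRCm38.p6 and run from 250 bases before to 50 bases after the annotated start, all on the plus strand, at chr5:12382916-12383215 (Sema3d), chr5:13396534-13396833 (Sema3a), chr5:14025026-14025325 (Sema3e) and chr5:17574566-17574865 (Sema3c). Capitals mark CG dinucleotides, the sites at which vertebrate DNA is methylated.
Sema3d: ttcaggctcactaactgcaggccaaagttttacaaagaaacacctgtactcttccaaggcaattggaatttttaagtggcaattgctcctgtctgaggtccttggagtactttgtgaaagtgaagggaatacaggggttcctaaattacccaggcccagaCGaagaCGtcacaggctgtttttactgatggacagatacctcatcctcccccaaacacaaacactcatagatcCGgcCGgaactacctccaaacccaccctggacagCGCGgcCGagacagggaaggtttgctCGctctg
Sema3a: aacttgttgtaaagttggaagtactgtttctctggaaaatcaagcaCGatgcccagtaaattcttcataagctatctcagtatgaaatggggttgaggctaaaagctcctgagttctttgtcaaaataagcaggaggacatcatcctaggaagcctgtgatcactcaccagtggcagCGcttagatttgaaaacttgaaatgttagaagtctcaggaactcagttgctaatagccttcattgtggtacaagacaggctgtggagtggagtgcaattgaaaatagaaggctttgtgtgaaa
Sema3e: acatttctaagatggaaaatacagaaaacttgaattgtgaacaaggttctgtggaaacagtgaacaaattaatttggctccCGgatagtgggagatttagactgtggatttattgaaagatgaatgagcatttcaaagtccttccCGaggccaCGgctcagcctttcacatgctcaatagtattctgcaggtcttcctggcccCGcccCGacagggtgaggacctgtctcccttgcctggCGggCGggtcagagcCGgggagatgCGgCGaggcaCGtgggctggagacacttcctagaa
Sema3c: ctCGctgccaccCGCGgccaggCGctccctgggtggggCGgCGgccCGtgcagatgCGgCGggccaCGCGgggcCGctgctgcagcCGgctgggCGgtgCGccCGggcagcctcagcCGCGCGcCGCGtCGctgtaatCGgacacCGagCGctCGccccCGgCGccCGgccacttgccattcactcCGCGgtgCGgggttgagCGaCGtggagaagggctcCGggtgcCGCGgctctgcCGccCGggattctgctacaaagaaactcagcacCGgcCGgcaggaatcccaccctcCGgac

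The Sema3c window was CG-rich, with 42 CG dinucleotides and 75.7% G or C, and 97.4% of the 32851 promoters in the table have no more. Sema3a was at the other end with 2, a count that 23.3% of promoters do not exceed, and Sema3d had 8 and Sema3e 11, near the median of 7. CAGGTG, the site bound by the Snail and Zeb repressors that drive the epithelial-mesenchymal transition, was searched on both strands, and 20.2% of promoters hold it. It was found once in the Sema3d window, at base 41, and not in the other 3 windows. ACGTG, the core of the hypoxia response element, occurs in 19.6% of promoters. It was found once in the Sema3c window, at base 206, and 2 matches overlap on opposite strands in the Sema3e window. These matches describe letters, and no binding was measured. Promoters for 7 of the 10 genes were in the table, and their windows had 2 to 42 CG dinucleotides.

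Sema3b and Sema3f, ligands that are often described as growth-suppressing in carcinoma, were both highest in 4T1 tumours. Sema3b had a log2 signal of 6.24, 5.54 and 5.50 in 67NR, 6.67, 7.23 and 6.31 in 66cl4, and 7.19, 7.48 and 7.42 in 4T1 mice. The 67NR arrays lay below all others, while 66cl4 and 4T1 overlapped. Relative to 67NR, Sema3b rose by 1.60 ± 0.25 in 4T1 (SE, n = 3 in each line, limma adjusted p = 0.000772) and by 0.98 ± 0.25 in 66cl4 (limma adjusted p = 0.0134). The 4T1 and 66cl4 means lay 0.63 apart (95% interval 0.06 to 1.19), short of the threshold (limma adjusted p = 0.0724). This difference passed under 3 of 19 alternatives (limma adjusted p down to 0.0148). Both calls against 67NR ended with the file number (adjusted p = 0.0592 for 4T1 and 0.104 for 66cl4) or the hybridization controls (0.099 and 0.0713) as covariate. That for 66cl4 also ended without 67NR replicate 2 (0.054) or 3 (0.0537). On a dimmer Sema3b probe set the differences from 67NR were 0.58 for 4T1 and 0.19 for 66cl4 (limma adjusted p = 0.00348 and 0.267). On it 4T1 was higher than 66cl4 by 0.39, without overlap (limma adjusted p = 0.0241). The dimmest probe set was above background in 4T1 alone.

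The 3 probe sets of Sema3f disagreed in size. The brightest is of the type Affymetrix marks with an x, whose probes may match other transcripts, and its log2 signal was 9.87, 9.77 and 9.85 in 67NR, 9.85, 9.74 and 9.79 in 66cl4, and 10.24, 10.12 and 10.33 in 4T1 mice. Its 4T1 values lay above the rest by a small step, 0.40 ± 0.10 against 67NR (SE, n = 3 in each line, limma adjusted p = 0.00778) and 0.44 ± 0.10 against 66cl4 (limma adjusted p = 0.00483). The first ended with the file number (adjusted p = 0.282) or the hybridization controls (adjusted p = 0.259) as covariate. A dimmer probe set of Sema3f without that mark read 8.54, 8.22 and 8.36 in 67NR, 7.14, 7.48 and 7.22 in 66cl4, and 10.34, 9.71 and 9.74 in 4T1 mice, with no overlap between lines. On it Sema3f was higher in 4T1 than in 67NR by 1.56 ± 0.18 and than in 66cl4 by 2.65 ± 0.18 (SE, limma adjusted p = 0.000149 and 4.41e-06 over all probe sets tested). It was lower in 66cl4 than in 67NR by -1.09 ± 0.18 (limma adjusted p = 0.00164), whereas the brightest probe set showed -0.038, with a 95% interval of -0.25 to 0.18 (limma adjusted p = 0.792). The remaining probe set had the direction of the dimmer one in all 3 comparisons, with differences of 1.35, 2.11 and -0.77, and all 3 passed the test.

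**Figure D3:**
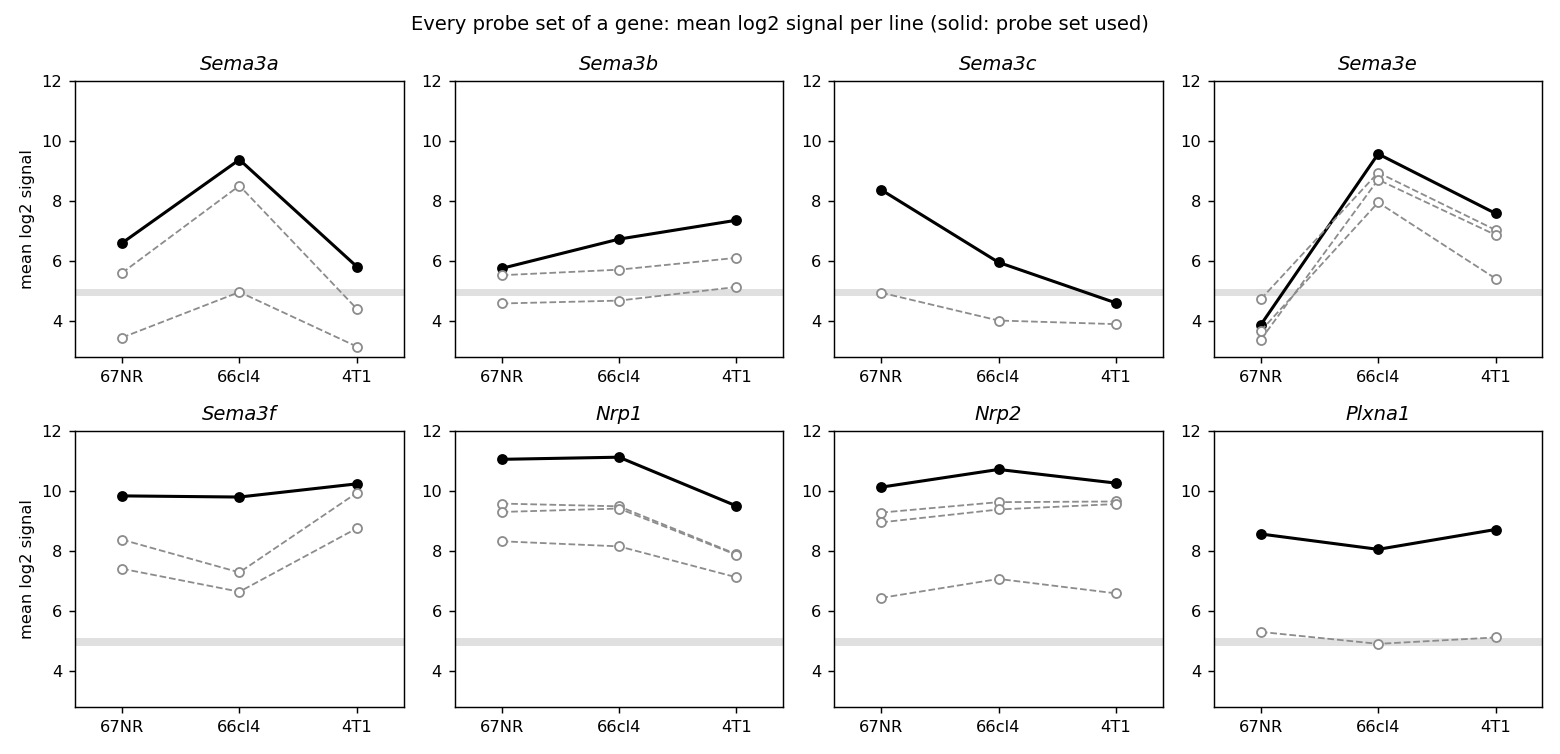
Mean log2 signal per line (n = 3) of every probe set of the 8 genes other than Sema3d and Plxnd1, with the probe set used as a solid black line, other probe sets dashed, and the bacterial control band in grey. Probe sets of Sema3e and Nrp1 run in parallel, while the brightest Sema3f probe set is nearly flat and its other 2 probe sets dip in 66cl4 and peak in 4T1.

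Nrp1, the shared co-receptor of Sema3a and vascular endothelial growth factor, was lower in 4T1 than in both other tumours. Its log2 signal was 11.08, 10.95 and 11.11 in 67NR, 11.00, 11.03 and 11.32 in 66cl4, and 10.35, 8.93 and 9.21 in 4T1 mice. All 4T1 values lay below those of the other lines, and 4T1 mouse 1 stood nearer to them than the other two. Nrp1 was lower in 4T1 than in 67NR by -1.55 ± 0.30 (SE, n = 3 in each line, limma adjusted p = 0.0026) and than in 66cl4 by -1.62 ± 0.30 (limma adjusted p = 0.00201). The first ended with the file number as covariate (-1.32, adjusted p = 0.124). Between 66cl4 and 67NR the difference was 0.072, with a 95% interval of -0.60 to 0.75 (limma adjusted p = 0.879), so a difference of up to 0.75 on the log2 scale was within its error. All 4 Nrp1 probe sets passed for 4T1 against 67NR, with differences of -1.68 to -1.20. Against 66cl4, 3 of 4 passed, and the dimmest, on which these lines overlapped, did not (-1.03, limma adjusted p = 0.0596).

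Nrp1 is expressed by blood vessels and by some myeloid and T cells as well as by tumour cells, so markers of such cells are given beside it. Of all 13409 genes tested, 20.5% were lower and 19.4% higher in 4T1 than in 67NR. For 66cl4 against 67NR these shares were 16.0% and 20.0%. Of 12 endothelial markers, 11 were lower in 4T1 than in 67NR and none higher, and all 12 were lower in 66cl4 than in 67NR, where Nrp1 did not pass the test. The summed linear signal of the endothelial list was 6749 to 9766 in 67NR, 1858 to 2324 in 66cl4 and 2993 to 3271 in 4T1 arrays. Of 10 macrophage markers, 8 were lower in 4T1 than in 67NR and none higher, and 4 were higher in 66cl4 than in 67NR and none lower. The summed signal of the macrophage list was 31366 to 38459 in 67NR, 33180 to 45668 in 66cl4 and 16510 to 18336 in 4T1. Of 8 markers of T and NK cells, 3 were lower in 4T1 and 8 in 66cl4 than in 67NR, none was higher, and their summed signal was 1241 to 2005 in 67NR, 468 to 672 in 66cl4 and 836 to 1356 in 4T1. Of 7 pericyte markers, 6 were lower and none higher in either comparison, with sums of 8257 to 9228 in 67NR, 2291 to 3517 in 66cl4 and 1394 to 2296 in 4T1. No marker of these 4 lists was at background in any line, and the part of these cells in the Nrp1 values was not tested. In whole captured tissue, fewer cells of a type and less RNA per cell cannot be told apart.

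Nrp2, the co-receptor of Sema3f, was highest in 66cl4 tumours by a small step on its brightest probe set, an order that did not hold on 2 of its 4 probe sets. Its log2 signal was 9.98, 10.26 and 10.12 in 67NR, 10.42, 10.69 and 11.02 in 66cl4, and 10.23, 10.21 and 10.32 in 4T1 mice. The 66cl4 values lay above all others, and 67NR and 4T1 overlapped. Nrp2 was higher in 66cl4 than in 67NR by 0.59 ± 0.15 (SE, n = 3 in each line, limma adjusted p = 0.0129), which ended without 67NR replicate 1 (0.52, adjusted p = 0.0504). It was lower in 4T1 than in 66cl4 by -0.45 ± 0.15 (limma adjusted p = 0.0361). That call ended under 10 of 19 alternatives, both covariates included (adjusted p up to 0.403). Between 4T1 and 67NR the difference was 0.14, with a 95% interval of -0.20 to 0.47 (limma adjusted p = 0.522). On a dimmer Nrp2 probe set 4T1 had the highest mean (9.56, beside 9.38 in 66cl4 and 8.95 in 67NR) and exceeded 67NR by 0.61 (limma adjusted p = 0.0272). On another the 4T1 and 66cl4 means were 9.64 and 9.62, and neither of these probe sets passed between 4T1 and 66cl4.

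Plxnd1 and Plxna1, the plexin genes among the 10, were lowest in 66cl4. Plxnd1, the Sema3e receptor gene of endothelial cells and some tumour cells, had a log2 signal of 9.53, 9.53 and 9.64 in 67NR, 8.36, 8.43 and 8.50 in 66cl4, and 8.59, 9.30 and 9.84 in 4T1 mice. The 66cl4 values lay below all others, and the 4T1 values spread across and beyond the 67NR range. Plxnd1 was lower in 66cl4 than in 67NR by -1.14 ± 0.25 (SE, n = 3 in each line, limma adjusted p = 0.00617). It was higher in 4T1 than in 66cl4 by 0.82 ± 0.25 (limma adjusted p = 0.026). That call ended under 8 of 19 alternatives, among them both covariates (adjusted p = 0.0881 with the file number and 0.0605 with the hybridization controls). For 4T1 against 67NR the difference was -0.32, with a 95% interval of -0.88 to 0.24 (limma adjusted p = 0.351). This value rested on single 4T1 mice, being 0.0098 without replicate 1 and -0.62 without replicate 3 (adjusted p = 0.968 and 0.0289). The endothelial markers were lower in 66cl4 than in 67NR for 12 of 12, beside 16.0% of all genes, as Plxnd1 was. In 4T1 they were lower than in 67NR for 11 of 12, beside 20.5% of all genes, where Plxnd1 did not pass the test. The part of endothelial cells in the Plxnd1 values was not tested. Plxnd1 had 1 probe set.

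Plxna1, a class A plexin that pairs with neuropilins, had a log2 signal of 8.44, 8.69 and 8.55 in 67NR, 7.88, 8.41 and 7.85 in 66cl4, and 8.56, 8.66 and 8.91 in 4T1 mice. The 66cl4 values lay below the rest. It was lower in 66cl4 than in 67NR by -0.51 ± 0.17 (SE, n = 3 in each line, limma adjusted p = 0.0359), which ended under 7 of 19 alternatives, both covariates included (adjusted p up to 0.121). It was higher in 4T1 than in 66cl4 by 0.66 ± 0.17 (limma adjusted p = 0.0099, and 0.0528 with the hybridization controls as covariate). Between 4T1 and 67NR the difference was 0.15, with a 95% interval of -0.22 to 0.52 (limma adjusted p = 0.517). The dimmer Plxna1 probe set was near background and passed in no comparison.

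Counted as a family, 9 of the 10 genes passed the filter on low values, with Sema3d left out, and Sema3e is not counted here. In 66cl4 against 67NR, 3 of the other 8 genes were higher (Sema3a, Sema3b, Nrp2), beside 20.0% of all 13409 genes tested, and 3 lower (Sema3c, Plxnd1, Plxna1), beside 16.0%, or 36.1% in either direction. In 4T1 against 67NR, 2 were higher (Sema3b, Sema3f), beside 19.4%, and 3 lower (Sema3a, Sema3c, Nrp1), beside 20.5%, or 39.9% in either direction. In 4T1 against 66cl4, 3 were higher (Sema3f, Plxnd1, Plxna1), beside 17.9%, and 4 lower (Sema3a, Sema3c, Nrp1, Nrp2), beside 23.4%, or 41.3% in either direction. The lines did not overlap for 6, 5 and 7 of the 8 in these comparisons, against 52.5%, 49.7% and 50.9% of all genes. Of their 20 probe sets tested singly, 10, 14 and 14 changed, beside 27.8%, 32.8% and 33.2% of all probe sets. The dimmest Sema3b probe set passed the filter on low values only through its 4T1 arrays. Its calls as higher in 4T1, in both counts of 14, were thus built into the test and lend them no weight. The median log2 difference over the 8 was 0.017, -0.092 and -0.0076 in these comparisons, against 0.0080, -0.025 and -0.026 over all genes. The comparisons share arrays, and the genes were chosen with results known, so these counts describe the members only. The F-test of any difference among the lines called 8 of the 8, beside 56.6% of all genes.

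**Figure D4:**
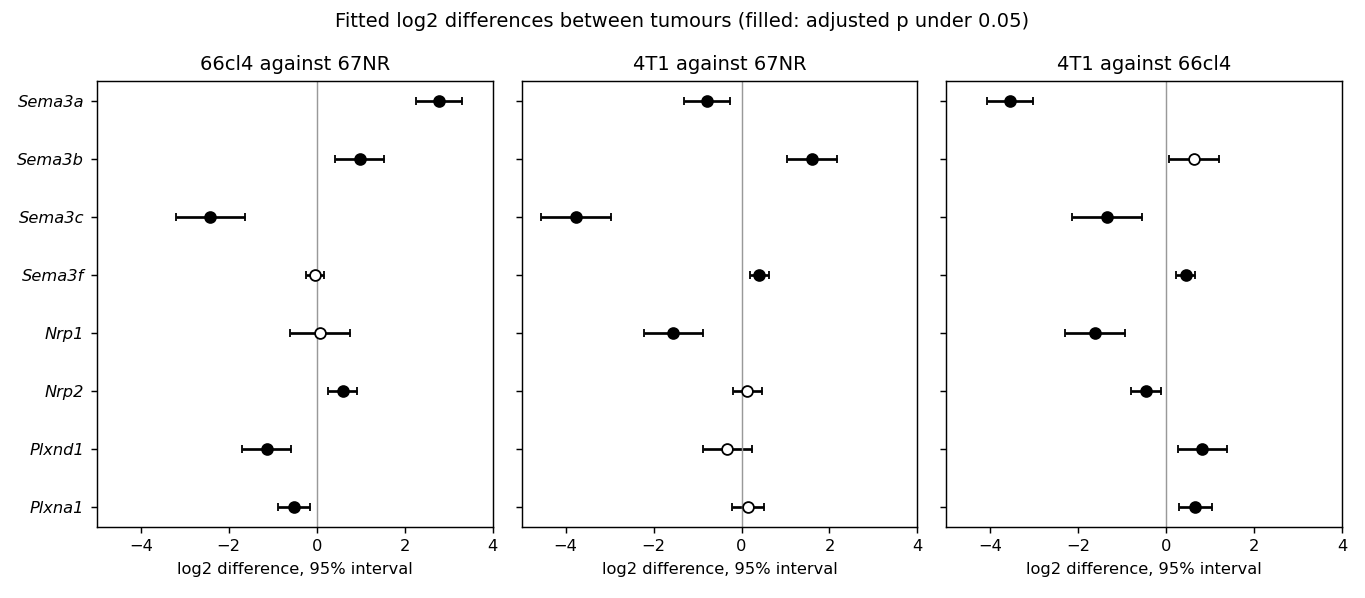
Fitted log2 differences with 95% intervals (n = 3 per line) for the 8 genes tested other than Sema3e, in the 3 comparisons, with positive values higher in the line named first. Filled points passed at an adjusted p under 0.05. Sema3a and Sema3c lie farthest from 0, and the 4T1 values of Sema3c are at background, so its 4T1 differences are given in the text as bounds.

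Among class 3 semaphorins and plexins outside the 10 genes, Sema3g and Plxna2 were lower in 4T1. Sema3g, a semaphorin gene of endothelium, had a mean log2 signal of 6.99 in 67NR and 5.24 in 66cl4 and was not above background in 4T1. It was lower in 66cl4 than in 67NR by -1.75 ± 0.16 (SE, n = 3 in each line, limma adjusted p = 3.21e-05) and at least 4.04-fold lower in 4T1 (limma adjusted p = 3.13e-06). Plxna2, a class A plexin gene, was lower in 4T1 than in 67NR by -1.91 ± 0.29 (limma adjusted p = 0.000586), and differed by -0.30 in 66cl4 (limma adjusted p = 0.452). Plxnb1, the plexin gene of the Sema4d receptor, was higher in 4T1 than in 67NR by 0.95 ± 0.16 and than in 66cl4 by 1.23 ± 0.16 (limma adjusted p = 0.00137 and 0.000295). Plxnc1, the Sema7a receptor gene, was higher in 66cl4 than in 67NR by 0.84 ± 0.26 (limma adjusted p = 0.0277). Of the 8 genes in this list, 2 were higher and 3 lower in 4T1 against 67NR, and 2 were higher and 2 lower in 66cl4 against 67NR, beside 39.9% and 36.1% of all genes called in these comparisons. Their median differences were -0.12 and -0.22, beside -0.025 and 0.0080 over all genes.

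Semaphorins of classes 4 to 7 are mostly membrane-bound, and among them Sema5a had the widest difference. Its 4T1 values were just above background, with a log2 signal of 5.19, 5.35 and 5.69 against 9.39, 10.24 and 9.81 in 67NR and 10.58, 10.59 and 10.70 in 66cl4 mice. It was lower in 4T1 than in 67NR by -4.40 ± 0.20 (SE, n = 3 in each line, limma adjusted p = 3.28e-07). Sema4c and Sema4d, whose proteins bind class B plexins, were higher in 4T1 than in 67NR by 1.88 ± 0.18 and 0.83 ± 0.17 (limma adjusted p = 3.22e-05 and 0.00304). Sema6d was lower in 66cl4 than in 67NR by -2.23 ± 0.17 (limma adjusted p = 1.14e-05), and Sema7a by -1.46 ± 0.34 (limma adjusted p = 0.00747). Both were also lower in 4T1 than in 67NR, by -1.03 and -1.06 (limma adjusted p = 0.000934 and 0.0302). Of the 13 genes, 2 were higher and 4 lower in 4T1 against 67NR, and 1 was higher and 3 lower in 66cl4 against 67NR, beside the same 39.9% and 36.1% of all genes. The medians of this list were -0.19 and -0.13.

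**Figure D5:**
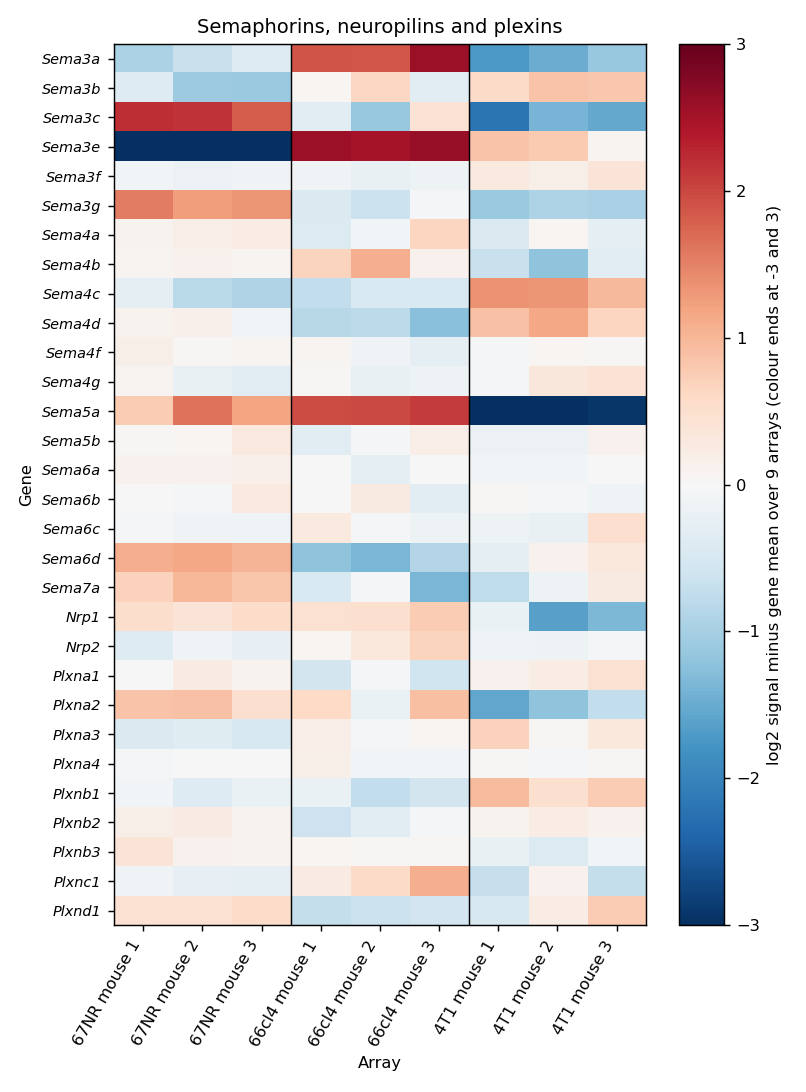
Log2 signal of every tested semaphorin, neuropilin and plexin gene on each array, minus the gene's mean over the 9 arrays, with the colour scale ending at -3 and 3. Arrays are grouped by line. Sema3e is lowest in 67NR, Sema5a in 4T1, and Sema3c is highest in 67NR, in all 3 arrays of the line.

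Proprotein convertases cleave class 3 semaphorins, and relative to 67NR 2 of the 4 listed, Furin and Pcsk5, rose in 4T1, beside 19.4% of all genes higher there. Furin, the best known of them, had a log2 signal of 8.78, 8.78 and 8.68 in 67NR, 8.08, 8.30 and 8.03 in 66cl4, and 9.27, 10.00 and 9.67 in 4T1 mice, with no overlap between lines. It was higher in 4T1 than in 67NR by 0.90 ± 0.17 and lower in 66cl4 by -0.61 ± 0.17 (SE, n = 3 in each line, limma adjusted p = 0.00216 and 0.0186). Pcsk5 was not above background in 67NR and at least 6.27-fold higher in 4T1, a bound that was 4.04-fold without 4T1 replicate 2. Pcsk5 passed the filter on low values only with its 4T1 values. Its call as higher in 4T1 was thus built into the test and lends the count no weight. Pcsk6 was lower in 66cl4 than in 67NR by -0.67 ± 0.13 (limma adjusted p = 0.00316), and Pcsk7 passed only between 4T1 and 66cl4 (-0.31, limma adjusted p = 0.0406).

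Among other ligands and partners of neuropilins, 6 of the 12 tested changed in 4T1 and 8 in 66cl4 against 67NR, beside 39.9% and 36.1% of all genes. Vegfc, encoding a lymphatic growth factor that binds neuropilin-2, was not above background in 67NR, and was at least 6.22-fold higher in 66cl4 and at least 13.2-fold higher in 4T1 (limma adjusted p = 0.000126 and 1.81e-05). Its probe set is of the x type. The endothelial receptor genes Kdr and Flt4 were lower in 66cl4 than in 67NR by -1.72 ± 0.12 and -1.59 ± 0.16 (SE, n = 3 in each line, limma adjusted p = 9.09e-06 and 7.32e-05). They were also lower in 4T1 than in 67NR, by -0.99 and -0.52 (limma adjusted p = 0.000189 and 0.0285). Most endothelial markers were lower in both comparisons as well. Flt1, another receptor gene of this list, was lower in 66cl4 than in 67NR by -1.40 ± 0.37 (limma adjusted p = 0.0152). In 4T1 Flt1 differed from 67NR by 0.73, with a 95% interval of -0.10 to 1.57 (limma adjusted p = 0.149). Vegfd was lower in 4T1 than in 67NR by -1.45 ± 0.31 (limma adjusted p = 0.0046). Against 67NR, 2 partners were higher and 4 lower in 4T1, and 3 were higher and 5 lower in 66cl4, with medians of 0.24 and -0.46. Nrcam, among those higher in 66cl4, passed the filter on low values only through its 66cl4 arrays (5.20, 5.26 and 5.59). Its call as higher in 66cl4 was thus built into the test and lends the counts no weight.

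Of 23 tested genes of plexin signalling, 7 were higher and 3 lower in 4T1 against 67NR, and 5 were higher and 8 lower in 66cl4 against 67NR, beside 39.9% and 36.1% of all genes, with medians of 0.10 and -0.10. Fyn, the kinase gene that acts downstream of Sema3a, was lower in 4T1 than in 67NR by -2.20 ± 0.19 (SE, n = 3 in each line, limma adjusted p = 2.11e-05) and in 66cl4 by -0.98 ± 0.19 (limma adjusted p = 0.00353). Farp1 and Farp2, genes of plexin-linked exchange factors, went opposite ways in 66cl4 against 67NR, Farp1 higher by 1.29 ± 0.15 and Farp2 at least 1.77-fold lower (limma adjusted p = 0.000137 and 0.000129). Gipc1, whose protein binds the tail of neuropilin-1, was higher in 66cl4 and 4T1 than in 67NR by 0.65 ± 0.12 and 0.79 ± 0.12 (limma adjusted p = 0.00208 and 0.000575). Ptk7, a pseudokinase receptor gene, was higher in 4T1 than in 67NR by 1.47 ± 0.11 (limma adjusted p = 5.7e-06). Mical1, encoding the actin oxidase that plexin A activates, was lower in 66cl4 than in 67NR by -1.27 ± 0.22 (limma adjusted p = 0.00168).

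The 5 genes most like Sema3e over the 9 arrays, by the root mean square difference of values centred on each gene's mean, were Eya1, Ccnb1ip1, Islr, Syt13 and Car9, among 13400 genes. Their distances were 0.53, 0.70, 0.79, 0.80 and 0.86 on the log2 scale. Eya1, a developmental transcription cofactor gene, had means of 4.90 in 67NR, 9.72 in 66cl4 and 7.84 in 4T1, beside 3.88, 9.57 and 7.59 for Sema3e. Car9, a hypoxia-induced carbonic anhydrase gene, had 5.42, 10.32 and 10.18. These values share arrays and rest on 3 lines.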

How the data were processed

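Total RNA of laser-captured tumour areas, 3 mice per line, was hybridised to single-colour Affymetrix arrays, per the labels. The deposited table gives log2 signals of 45101 probe sets on every array; the scale was read from the values (2.42 to 14.80), and how the authors summarised and normalized them is not stated in the labels or the file. Values were used as deposited. Arrays have no read depth, and 3 per line limit the precision.

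Of the probe sets, 64 were controls, 34945 had 1 gene symbol, 932 several and 9224 none; symbols were updated through Entrez identifiers against RefSeq (GRCm38.p6), matching 34741. Genes above the 40th percentile of the array on at least 3 arrays were tested, 13409 of 18193. limma 3.58.1 in R 4.3.3 (lmFit, eBayes, group means, all 9 arrays, 6 residual and 3.63 prior degrees of freedom) gave two-sided tests with Benjamini-Hochberg adjustment over all genes tested, called at 0.05. Probe sets were also fitted singly, adjusted over 28223. An exact permutation of 3 against 3 cannot go below 0.1. Where all 3 arrays of the dimmer line were not above background, a fold is a bound from the brighter mean against the bacterial control. An adjusted p beside a bound tests the fitted difference, not the bound. The procedure was tested on simulated data.

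Members and lists (other class 3 semaphorins and plexins, semaphorins of classes 4 to 7, plexin signalling, neuropilin partners, convertases, cell markers) were chosen with earlier results of these data known. Named genes are all members, genes from among the up to 6 per list with the smallest F-test p, and the 5 nearest to the member with the widest range. Not all of the up to 6 are named. Chromosome neighbours of members and some cell markers are named as well. Alternatives changed the probe set rule, filter, scaling, block, covariates, arrays fitted and prior, and left out each array.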

Additional observations from a re-analysis of the deposited data

How the results depend on the processing

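With Sema3e left out, 5 of 8 members changed for 4T1 and 6 for 66cl4 against 67NR, and 7 for 4T1 against 66cl4. The shares over all genes were 39.9%, 36.1% and 41.3%. Sema3e had been singled out from these data, so its calls carry no weight in the counts that follow. The alternatives were counted over 9 members, Sema3e included, which gave 6, 7 and 8 in the same order. The first and last of these counts moved by over 1.5 times under a covariate, and the 66cl4 count against 67NR, 5 with either, moved by less. With the file number as covariate 2 members changed between 4T1 and 67NR; with the hybridization controls 3 did, and 4 between 4T1 and 66cl4, and the cause was not tested. Over all genes 5347 changed between 4T1 and 67NR, 2661 with the file number and 2151 with the hybridization controls as covariate. Leaving out 1 array gave 5 to 7, 5 to 7 and 6 to 9 members, and 7 to 9 in the F-test. The labels' replicate numbers share only a number: deviations of same-numbered arrays correlated at -0.11 to 0.16, and of others at -0.18 to 0.16. With the replicate number as a block the counts stayed at 6, 7, 8 and 9, and no call of a member was lost.

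Of 24 differences of single members other than Sema3e, 18 were called; 7 of these held in every alternative, 11 were lost in at least 1, and none changed sign. Those that changed sign had not been called: Plxnd1 in 4T1 against 67NR, at -0.62 to 0.0098 when 1 array was left out, Plxna1 in the same comparison with the mean of probe sets (-0.018), and Nrp1 in 66cl4 against 67NR with that mean (-0.019), with the hybridization controls (-0.059) and when 1 array was left out (-0.031 to 0.13). The cause was not tested. Sema3f in 66cl4 against 67NR passed with the mean of probe sets (-0.63) and with the brightest probe set not of the x or s type (-1.09), the latter chosen after seeing the data. The Sema3e bound for 66cl4 over 67NR was 23.8 to 25.9 when 1 array was left out. A signal near background limits Sema3c in 4T1 and Sema3e in 67NR to bounds.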

Other observations

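Within the 4T1 group, mouse 1 stood high for Nrp1 and low for Plxnd1. Nrp1 was highest in mouse 1 (10.35 against 8.93 and 9.21 on the log2 scale) and lowest in mouse 2, and mouse 1 was the highest 4T1 array on all 4 Nrp1 probe sets. Plxnd1 was lowest in mouse 1 (8.59 against 9.30 and 9.84). Sema3e was lowest in mouse 3 (7.10 against 7.87 and 7.80), and on all 4 of its probe sets. The summed endothelial marker signal of these arrays lay close together, at 2993, 3271 and 3103 in mice 1, 2 and 3, and that of macrophage markers at 18336, 16510 and 17117. The mean log2 signal of the macrophage list was instead lowest in mouse 1 (9.43 against 9.56 and 9.77). Its member Cd163 varied widely, at 4.33, 6.05 and 7.76. By summed signal, mouse 1 was lowest for the pericyte list (1394 against 2293 and 2296), the T and NK cell list (836 against 1356 and 1082) and the fibroblast list (18136 against 42315 and 27229). The part of these cells in the values was not tested.

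The remaining marker lists differed between lines as follows. Of all genes tested, 19.4% were higher and 20.5% lower in 4T1 than in 67NR. For 66cl4 against 67NR these shares were 20.0% and 16.0%. Against 67NR, 5 of 9 fibroblast markers rose and 2 fell in 4T1, and 5 rose and 1 fell in 66cl4. Schwann cell markers, of which 4 of 6 were measured, were higher for 2 in 4T1 and 1 in 66cl4, the latter near the share of all genes. Epithelial markers were higher for 8 of 8 in 4T1 and for 1 in 66cl4. Of the 8, Cdh1, Krt7, Esrp1 and Cldn7 were at background in 67NR and 66cl4 and passed the filter through their 4T1 values. A call as higher in 4T1 was thus built into the test of these 4, and they lend the count no weight. Epcam, Krt8, Krt18 and Krt19 did not depend on 4T1 to pass the filter.

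Sema3b and Sema3f lie on chromosome 9 with 3 protein-coding genes between them, Gnai2, Slc38a3 and Gnat1. Their mean log2 signals were 12.02, 12.01 and 12.27 for Gnai2 and 6.47, 6.15 and 6.32 for Slc38a3 in 67NR, 66cl4 and 4T1, and Gnat1 was not above background in any line.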
